A study of Danio rerio with 15 samples.

Results

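The transcripts described here are those whose counts were higher in radial glia of notch3-/- zebrafish larvae than in radial glia of notch3+/+ larvae. They were chosen from the larval counts by a DESeq2 Wald test with the replicate number in the model, at a Benjamini-Hochberg adjusted p under 0.05 and a log2 fold change above 0. Transcripts on chromosome 3 were left out, because they could be linked to the mutated locus. Of 30279 transcripts in the table, 18098 received an adjusted p. Of these, 82 were higher in notch3-/- and 194 were lower. After 13 on chromosome 3 were removed, 69 transcripts remained, and all 69 are followed below. The question is where these transcripts stood in a second set of libraries, made from adult neural progenitors with intact Notch3 that were sorted as quiescent or activated.

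The notch3-/- libraries (n = 3) and the notch3+/+ libraries (n = 3) came from sibling larvae at 7 days. The mutants were homozygous for the null allele notch3fh332, and both genotypes carried gfap:egfp, a transgene that marks radial glia in green. Each larval library was made from sorted green cells of 15 pooled heads without eyes, so the cells were not limited to the telencephalon. The adult fish were 3 months old, wild type at notch3, and carried her4:drfp, a red reporter of Notch-responsive radial glia, together with mcm5:egfp, a green reporter of dividing cells. For the adult libraries, the methods describe 3 independent experiments with 20 pooled telencephali. All cell types were gated in these double transgenic fish, so adult libraries of different types may share a pool. Quiescent radial glia (qRG, n = 3) were sorted as red cells without green. Activated progenitors (n = 6) were sorted as red and green radial glia (aRG) or as green cells without red (aNP). The adult count columns are headed quiescentNPC, activatedNPC and proliferative. The last 2 names did not settle which columns are aRG and which aNP, so these 6 columns were pooled as activated. The aNP differ from qRG in the radial glia reporter as well as in the reporter of dividing cells. A difference between qRG and activated libraries therefore does not separate rest from radial glial identity.

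Notch3 is a transmembrane receptor. When a ligand on a neighbouring cell binds it, proteases release its intracellular domain, which enters the nucleus and acts with the DNA-binding protein Rbpj on targets that include genes of the Her and Hey families of transcriptional repressors. Radial glia are the neural stem cells of the zebrafish telencephalon, and in the adult most of them rest outside the cell cycle. Notch3 signalling is known for keeping them in that resting state.

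The tables list Ensembl transcript identifiers and do not pair them with gene names, and 0 of the 30279 identifiers matched the name tables at hand. The members are therefore given by their position on the Zv9 assembly, and no function or gene family is attached to any of them. For the same reason the level of notch3 itself, the markers of radial glia and of other cell types, and the members of the Notch pathway were not analysed here, and no sequence is shown. The labels of the cells could thus not be set against their defining markers.

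The larval libraries held between 17776468 and 37653792 counted reads and the adult libraries between 19555038 and 66966289. Library sizes were scaled by the TMM method of edgeR, and levels are given as CPM (counts scaled to library size) on that scale, or as the same value per kilobase of transcript (RPKM) where transcripts of different length are set side by side. The 3 adult libraries with the fewest reads, activatedNPC replicate 3 and proliferative replicates 1 and 3, had scaling factors of 1.44 to 2.002. The other 6 adult libraries had factors between 0.679 and 0.918. The same 3 libraries had the most transcripts with a read, 29361 to 29424, against 26487 to 28178 in the others. Among the pooled columns, proliferative replicate 2 was closer to activatedNPC replicate 2 (Pearson r = 0.940 across transcripts) than to proliferative replicates 1 and 3 (r = 0.861 and 0.914). Its r with quiescentNPC replicates 1, 2 and 3 was 0.930, 0.933 and 0.922. The profile of activatedNPC replicate 3 was closest to that of proliferative replicate 3 (r = 0.953), by a small margin. Its r was 0.948 and 0.946 with activatedNPC replicates 1 and 2, and 0.927 with proliferative replicate 1. The 3 quiescentNPC columns were most like each other (r = 0.963 to 0.977). Several of the members' adult counts and medians are also given with libraries left out. Left out were activatedNPC replicate 3 and proliferative replicate 2, or the 3 libraries with the fewest reads. The adult counts at an unadjusted p and those of DESeq2 are given with all 9 libraries only, as are single members' levels. In these bulk libraries, fewer cells of a type and less RNA per cell cannot be told apart.

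In larvae, the 69 members covered a wide range of levels and mostly modest differences. All values in this comparison were used for the choice and are a description. The larval log2 fold change, notch3-/- over notch3+/+, was between 0.47 and 4.36 with a median of 0.86. It was under 1 in 41 members, 1 or more in 28, and 2 or more in 11. All 69 were higher in the notch3-/- library of each of the 3 replicate pairs, although the member at chr16:18720425-18754319 was nearly level in pair 2, with 29.5 CPM in both libraries. The share of tested transcripts called higher, which fixes the members, was 0.453%. In 42 of the 69, all 3 notch3-/- libraries were above all 3 notch3+/+ libraries, against 3.99% of all tested transcripts. This again follows from the choice. In 31 members the range among the notch3+/+ libraries was larger than the fold change itself on the log2 scale.

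**Figure D1:**
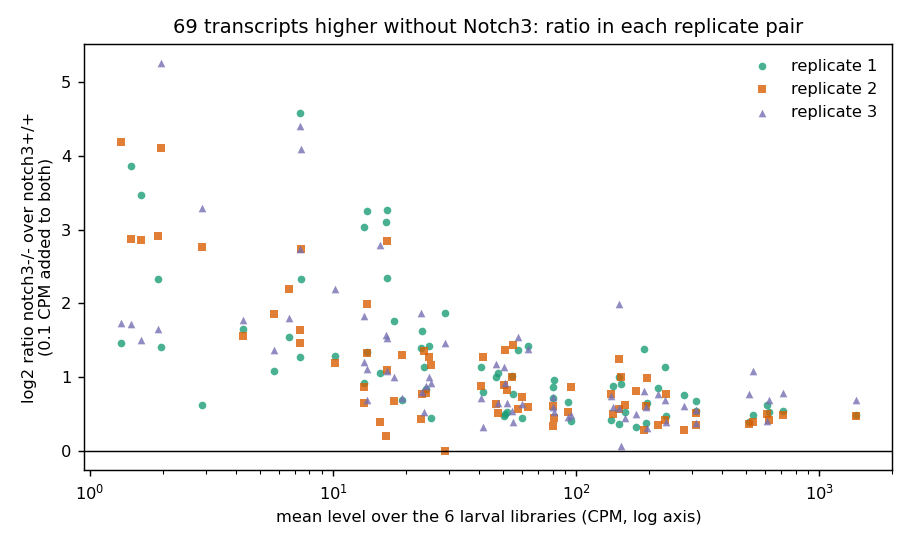
Log2 ratio of notch3-/- over notch3+/+ in each of the 3 replicate pairs (vertical axis, 0.1 CPM added to both values) against the mean larval level in CPM (horizontal axis, log scale), with 3 points for each of the 69 members. The largest ratios belong to members with low levels, and the 5 most abundant members have larval log2 fold changes of 0.49 to 0.64.

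The members with the highest larval levels had small differences. The member at chr20:34937677-34980838, which has 8 exons, had 1657, 1515 and 1881 CPM in notch3-/- replicates 1, 2 and 3, against 1179, 1091 and 1164 CPM in notch3+/+. ENSDART00000105615 (chr12:27468003-27491023, 5 exons) had 845, 730 and 1014 CPM in notch3-/-, against 582, 519 and 591 CPM in notch3+/+. The member at chr23:4886764-4910227 had 756, 628 and 834 CPM in notch3-/-, against 524, 472 and 519 CPM in notch3+/+. In these 3 members every notch3-/- library was above every notch3+/+ library. The same held at chr19:5782509-5878902, with 669 to 797 CPM in notch3-/- and 486 to 519 CPM in notch3+/+. It held too at chr2:45004897-45007595, with 481 to 896 CPM in notch3-/- and 366 to 434 CPM in notch3+/+. The larval log2 fold changes of these 5 were between 0.49 and 0.64.

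The members with the largest larval fold changes had low levels in notch3+/+, at most 3.88 CPM in any library of the 5 largest. At chr24:43044254-43051322 the values were 0.853, 2.75 and 7.70 CPM in notch3-/-, against 0.260, 0.0647 and 0.104 CPM in notch3+/+ (log2 fold change 4.36 with an SE of 0.94). At chr22:8805409-8833136 they were 1.35, 1.11 and 4.88 CPM in notch3-/-, against 0, 0.0647 and 1.40 CPM in notch3+/+ (3.86, SE 1.09). Replicate 3 of notch3+/+ lay within the notch3-/- range, so the groups overlapped. At chr18:7047761-7050665 they were 0.177, 6.48 and 0.924 CPM in notch3-/-, against 0, 0.259 and 0.208 CPM in notch3+/+ (3.73, SE 1.098). Most of that difference came from notch3-/- replicate 2. The other 2 of the 5 largest were the member at chr7:9213363-9214691, with 5.18 to 26.5 CPM in notch3-/- and 0.208 to 3.88 CPM in notch3+/+, and the member at chr11:261745-265015, with 7.33 to 22.1 CPM in notch3-/- and 0.260 to 3.23 CPM in notch3+/+. In neither did the genotypes overlap.

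In 6 members (8.70%), one replicate was at least 3 times the others in both genotypes, against 1.31% of the transcripts tested in larvae. The member at chr14:11625681-11629239 had 25.1, 166.5 and 23.2 CPM in notch3-/- replicates 1, 2 and 3, against 9.67, 112.6 and 7.91 CPM in notch3+/+. Replicate 2 was the high one in 4 of the 6, and replicate 3 in the remaining pair. Across the whole table, the deviations of same-numbered libraries from their genotype means correlated at 0.336, 0.472 and 0.375 for replicates 1, 2 and 3. Without the replicate number in the model the rule would have chosen 3 transcripts, of which 2 are members. With the paired test of edgeR the rule would have chosen 18 transcripts, all of them among the 68 members it tested. That test used the same larval values, so it describes the choice and is no separate support. Leaving out both larval libraries of replicate 1, 2 or 3 would have given 22, 45 or 35 transcripts, of which 14, 27 or 16 are members.

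At the threshold, the last members inside were at chr17:45128314-45134539 and chr10:17030111-17030239, both with an adjusted p of 0.0494 from DESeq2. The first transcripts outside were at chr21:40776705-40884038 (adjusted p of 0.0503 from DESeq2) and chr20:32086266-32151699 (0.0517). The member on chromosome 10 has a single exon of 129 bp and stood at 2.85 to 3.49 CPM in notch3-/- and 0.291 to 1.04 CPM in notch3+/+. The first transcript outside stood at 142 to 195 CPM in notch3-/- and 97.4 to 138 CPM in notch3+/+. For both of them, every notch3-/- library was above every notch3+/+ library.

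The members were close to the tested transcripts in median structure and high in level. Their median length was 2230 bp, against 2137 bp for all transcripts tested in larvae. Their median number of exons was 7, against 8, and their median genomic span 15965 bp, against 16152 bp. The span was more spread in the members, with quartiles of 3863 and 57124 bp, against 7067 and 37364 bp. The quartiles of the exon number were 3 and 12, against 5 and 14. Members with a single exon numbered 3 (4.35%, against 2.85% of tested transcripts), and 5 had 30 exons or more (7.25%, against 4.51%). The exons of 4 members (5.80%, against 7.63%) overlapped another transcript, in 3 cases on the opposite strand. Strand was not used in counting, so reads of those pairs cannot be told apart. The median larval level was 19.1 RPKM for the members and 5.59 RPKM for all tested transcripts. A count test passes abundant transcripts more easily, so this level is in part a property of the rule.

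Members lay on many chromosomes. There were 7 on chromosome 1 and 7 on chromosome 19, which is 0.859% and 0.956% of the tested transcripts there. A further 6 lay on chromosome 23 (0.916%) and 5 on chromosome 16 (0.608%). These were the chromosomes with the most members. Of the nuclear chromosomes besides 3, chromosome 2 had the lowest share, with 1 member (0.116%). With chromosome 3 kept, 0.453% of all tested transcripts were called higher. A few were close neighbours. The members at chr18:7047761-7050665 and chr18:7054756-7056956 lie 4090 bp apart on the same strand. Those at chr23:4886764-4910227 and chr23:4954954-4970834 are separated by 44726 bp, and those at chr14:11625681-11629239 and chr14:11703545-11705974 by 74305 bp, again on the same strand in each pair. Both members of the chromosome 14 pair had replicate 2 at least 3 times above the others in both genotypes, as did the second member of the chromosome 18 pair.

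The adult libraries took no part in the choice, and all 69 members could be tested there. As chosen here, members were above 0 more often than transcripts in general, and the choice of members bears on this. The median log2 fold change, qRG over activated, was 0.58 for the 69 members (quartiles -0.11 and 1.29), against -0.27 for all 27848 tested transcripts. Members could come only from transcripts also tested in larvae. For the 18089 transcripts tested in both, the median was -0.097, nearer to the members. The shares over all tested transcripts given here include those that could not be members. Shares among transcripts tested in both are given below, split by larval level. It was above 0 in 47 members, or 68.1%, against 35.8% of all tested transcripts. With the quasi-likelihood test of edgeR and an adjusted p under 0.05, 7 members were higher in qRG. That is 10.1% of the members, against 0.549% of all tested transcripts (153 of 27848). None of the 69 passed the test as lower in qRG, where 1 transcript of all tested did (0.00359%). Members chosen without both larval libraries of replicate 3 (35 transcripts) had an adult median of 0.20, with 19 above 0. Of them 1 was called (2.86%, against 0.549% of all tested transcripts), and they held none of the 7. Those chosen without replicate 1 (22 transcripts) or replicate 2 (45 transcripts) had medians of 0.46 and 0.80, with 14 and 35 above 0. In these sets 1 (4.55%) and 2 (4.44%) were called. The 3 transcripts chosen with no replicate number in the model had a median of -1.41.

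Members were also higher in qRG more often than transcripts in general under the following ways of counting. At an unadjusted p under 0.05 from edgeR, 24 members were higher in qRG (34.8%), against 5.10% of all tested transcripts. The 3 members lower in qRG (4.35%) were near the share of all tested transcripts, 3.55%. In 15 members (21.7%) all 3 qRG libraries were above all 6 activated libraries, against 3.34% of tested transcripts. Without activatedNPC replicate 3 and proliferative replicate 2 this held for 21 members (30.9%, against 5.39%), and without the 3 libraries with factors above 1 for 24 (36.4%, against 16.2%). In 0 members were all qRG libraries below all activated ones, against 1.86%. DESeq2 gave an adjusted p to 55 members and called 9 higher, among them the 7 called by edgeR, against 1.70% of the transcripts it tested. It called 0 members lower, against 0.551%. The additional 2 were the members at chr23:20122765-20241639 and chr23:4886764-4910227. Members were more abundant in adults than the typical transcript, so the background was also read among transcripts of like abundance. Between the quartiles of the members' adult abundance (log2 CPM of 2.13 to 5.93), 5 of 35 members were called higher by edgeR, against 1.03% of 11061 transcripts. In the same band 27 of 35 members had a log2 fold change above 0, against 46.9%, and the medians were 0.71 for members and -0.05 for all transcripts. In the band drawn without activatedNPC replicate 3 and proliferative replicate 2, 2 of 34 members were called (5.88%, against 0.655%).

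**Figure D2:**
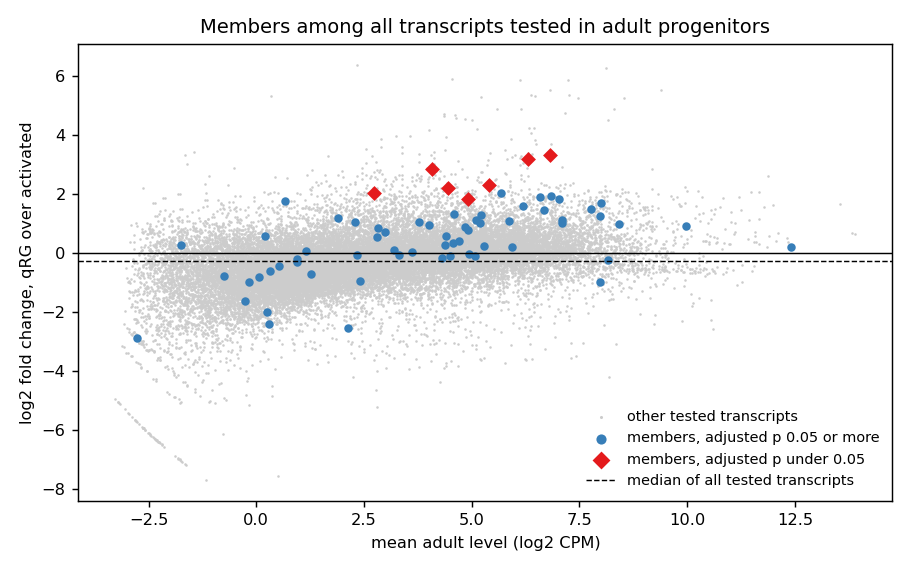
Log2 fold change of qRG over activated (vertical axis) against the mean adult level in log2 CPM (horizontal axis) for all 27848 transcripts tested, in grey, and for the 69 members, with the 7 that passed an adjusted p under 0.05 as red diamonds. The red diamonds lie between 1.83 and 3.31, and the members at low levels fall on both sides of the dashed median of all transcripts, -0.27.

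ENSDART00000105615 had the largest adult difference of the members. It had 183, 295 and 369 CPM in qRG replicates 1, 2 and 3. In the activated libraries its lowest, median and highest values were 10.3, 22.6 and 66.6 CPM. Every qRG library was therefore above every activated one, and proliferative replicate 2 was the highest of the activated libraries. The log2 fold change was 3.31 (SE 0.55, edgeR adjusted p = 0.00932). In adults the SE, here and below, is the absolute log2 fold change over the square root of the edgeR F statistic. The larval SE came from DESeq2, so the 2 are not the same measure. Per length, it stood at 127 RPKM in qRG and 12.7 RPKM in activated libraries. In larvae it was among the 5 most abundant members, at 387 RPKM in notch3-/- and 253 RPKM in notch3+/+.

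ENSDART00000148960 (chr16:31667957-31712330, minus strand, 10 exons, 8240 bp) had 169, 184 and 229 CPM in qRG. Its lowest, median and highest activated values were 14.3, 17.6 and 39.1 CPM. The groups were far apart, and again proliferative replicate 2 held the highest activated value. The log2 fold change was 3.17 (SE 0.43, edgeR adjusted p = 0.00161). In larvae it had 277, 209 and 317 CPM in notch3-/-, against 154, 164 and 187 CPM in notch3+/+, also without overlap. It was the member whose adult call held under each of the 18 alternatives tried for it, with an adjusted p of at most 0.0238 from edgeR or DESeq2.

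The other 5 called members were less abundant. The member at chr17:45128314-45134539 had 16.4, 47.8 and 54.7 CPM in qRG, against a lowest, median and highest of 3.60, 5.01 and 8.30 CPM in activated libraries (log2 fold change 2.83, SE 0.44, edgeR adjusted p = 0.00470). Its qRG replicate 1 was well below qRG replicates 2 and 3. The member at chr21:42299347-42504376 had 46.9, 82.7 and 140.1 CPM in qRG, against 10.8, 16.8 and 28.5 CPM in activated libraries (2.28, SE 0.43, edgeR adjusted p = 0.0237). The member at chr20:35407090-35454345 had 36.3, 37.8 and 61.6 CPM in qRG, against 8.36, 9.68 and 11.9 CPM in activated libraries (2.18, SE 0.34, edgeR adjusted p = 0.00517). Its activated libraries were the most even of the 7, at 9.93 ± 1.32 CPM (SD, n = 6). The member at chr21:21745279-21749141 had 12.4, 12.4 and 15.09 CPM in qRG, against 2.25, 2.88 and 5.49 CPM in activated libraries (2.02, SE 0.40, edgeR adjusted p = 0.0331). It is one of the members whose exons overlap a transcript on the opposite strand. The member at chr13:8679134-8684248 had 46.9, 58.3 and 67.6 CPM in qRG, against 9.76, 14.7 and 23.1 CPM in activated libraries (1.83, SE 0.37, edgeR adjusted p = 0.0366).

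**Figure D3:**
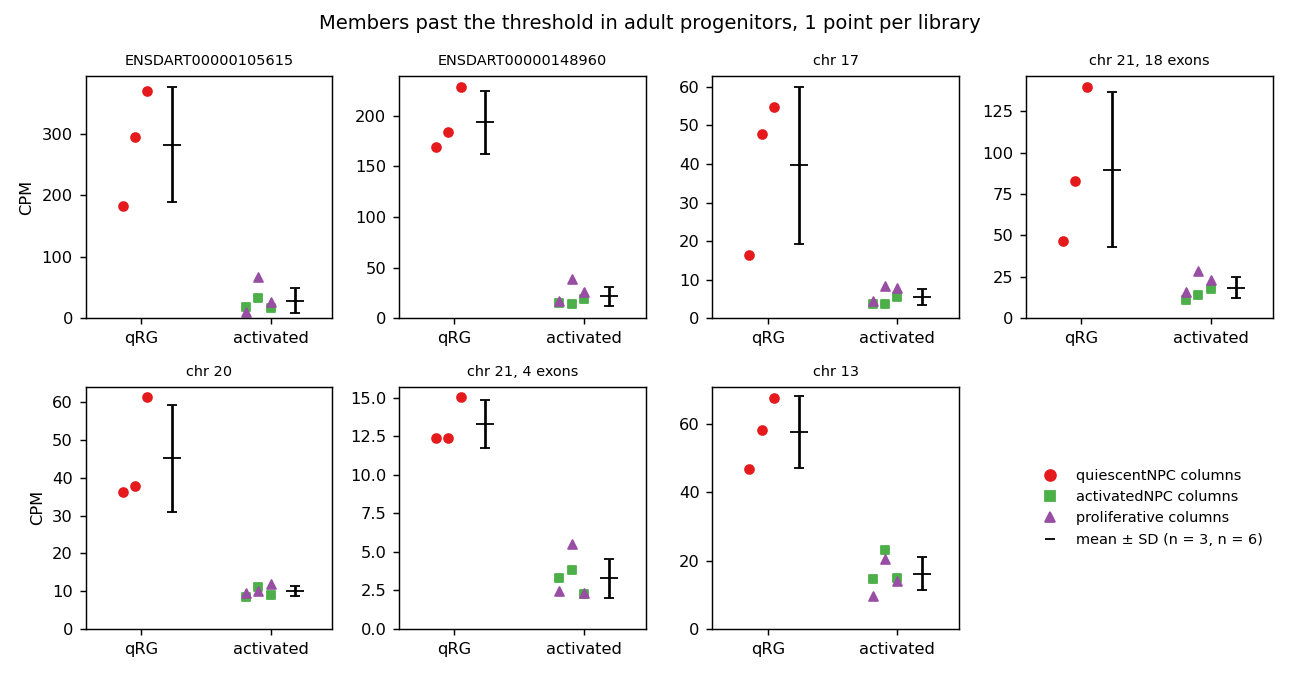
CPM of the 7 members that passed the test in adults, 1 panel each, with 1 point per library, qRG on the left and activated on the right, and the mean ± SD beside the points (n = 3 and n = 6). No activated point reaches the lowest qRG point in any panel, and the highest qRG point is replicate 3 in all 7.

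In all 7 the qRG and activated libraries did not overlap, against 21.7% of the members and 3.34% of all tested transcripts. The test that called the 7 used these same libraries. In 5 of the 7 the larval genotypes did not overlap, against 60.9% of the members, which follows from the choice. The larval log2 fold changes of the 7 were between 0.49 and 0.82, so none came from the members with large larval folds. The calls leaned on the qRG libraries. Replicate 3 was the highest qRG library in all 7 and replicate 1 the lowest in 6. Replicate 3 was highest in 58.0% of all members, against 35.2% of all tested transcripts. Without qRG replicate 3 only ENSDART00000148960 was called (1.45% of members, against 0.247% of all tested transcripts). Without qRG replicate 2 the count was 3 (4.35%, against 0.264%), and without activatedNPC replicate 3 it was 4 (5.88%, against 0.372%). Calls over all transcripts dropped as well, to 70, 75 and 101 in these fits, against 153 with all 9 libraries. The members' median stayed above that of all transcripts each time, at 0.45 without qRG replicate 3, where the median of all tested transcripts was -0.36. Without both activatedNPC replicate 3 and proliferative replicate 2, 4 members were called (5.88%, against 0.403%) and the members' median was 0.71, against -0.27 for all.

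The scaling of the adult libraries set where 0 lies. With library totals in place of TMM factors, the median of all tested transcripts moved to -0.80 and that of the members to 0.14, and 4 members were called higher, 3 of them shared with the 7. That is 5.80% of the members, against 0.481% of all tested transcripts, of which 95 were called lower under this scaling. Relative to all transcripts the members stood 0.94 higher under this scaling and 0.85 higher under TMM. Without the 3 activated libraries with factors above 1, the medians were 0.75 for members and 0.08 for all transcripts, and 6 of the 7 were called (9.09% of members tested, against 1.08% of all tested transcripts). A log2 fold change above 0 was found in 72.7% of the members tested there, against 53.1% of all. In that fit 1 member was called lower in qRG, at chr1:52397904-52595159, with a log2 fold change of -1.44 (edgeR adjusted p = 0.0416). That is 1.52% of the members tested in that fit, against 1.298% of all tested transcripts.

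Library by library, the median member was highest in the 3 qRG columns. Relative to each transcript's mean over the 9 libraries, the median member was at 0.32, 0.47 and 0.72 on the log2 scale in qRG replicates 1, 2 and 3. The median of all tested transcripts was at -0.07, -0.01 and 0.01 in the same libraries. In the activatedNPC columns the median member was at -0.66, -0.38 and -0.30. In the proliferative columns it was at -0.30, 0.13 and -0.09. Proliferative replicate 2 was thus the one activated library in which the median member was above its own mean, in 39 of 69 members, against 45, 48 and 52 of 69 in qRG replicates 1, 2 and 3.

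**Figure D4:**
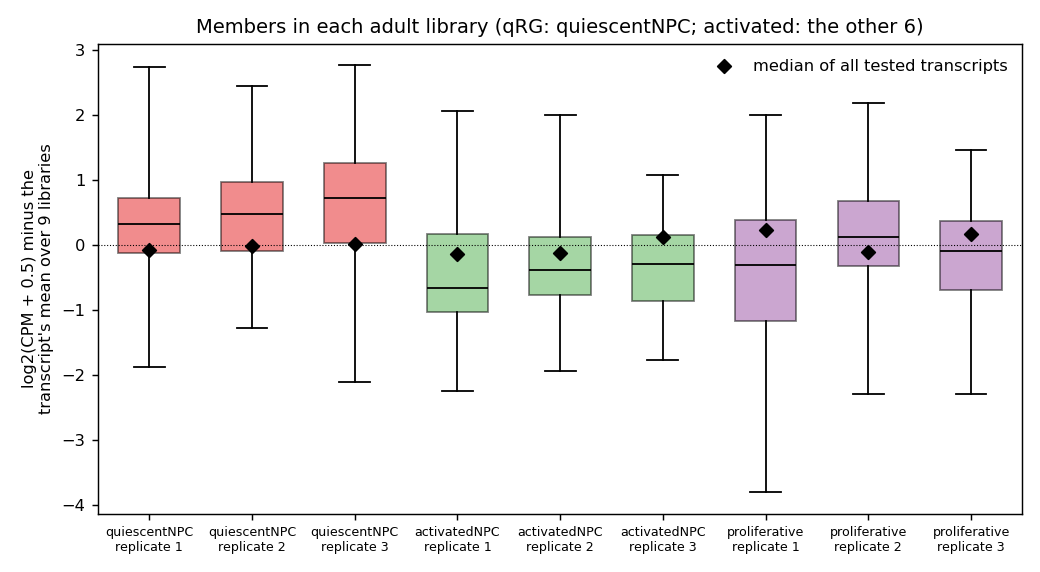
Distribution of the 69 members in each adult library, as log2(CPM + 0.5) minus the transcript's mean over the 9 libraries, with boxes at the quartiles, lines at the median and whiskers at the lowest and highest member. Black diamonds mark the median of all tested transcripts. The box medians lie above the diamonds in the 3 quiescentNPC columns and in proliferative replicate 2, and below them in the other 5.

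The adult difference was larger among members that were abundant in larvae, and it was not tested between them and the rest. Above the median larval level of the members there were 34 (21.2 to 576 RPKM). Their median adult log2 fold change was 1.104, 28 of them were above 0, and all 7 calls were among them. Of the 4241 transcripts above the same larval level, the median was 0.08, 55.6% were above 0 and 1.41% were called. The other 35 members (1.09 to 19.1 RPKM in larvae) had a median of 0.06, 19 of them were above 0, and 0 passed the edgeR test as higher. They were also less abundant in adults, with a median of 2.60 RPKM, against 11.4 RPKM for the upper 34. The 13848 transcripts at or below that level had a median of -0.16, 40.1% were above 0 and 0.657% were called. Without activatedNPC replicate 3 and proliferative replicate 2, the medians were 1.22 for the upper and 0.09 for the lower members. Without the 3 libraries with factors above 1, they were 1.13 and 0.40. Across the 69 members the larval level, as log2 RPKM, and the adult log2 fold change had a Pearson r of 0.44 and a Spearman rho of 0.46. The larval and the adult fold changes had a Spearman rho of -0.52. These members share the larval libraries that chose them, and level and larval fold change were themselves tied (rho = -0.70), so the correlations are a description. Across the 18089 transcripts tested in both tables, the rho of larval RPKM with the adult fold change was 0.28.

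**Figure D5:**
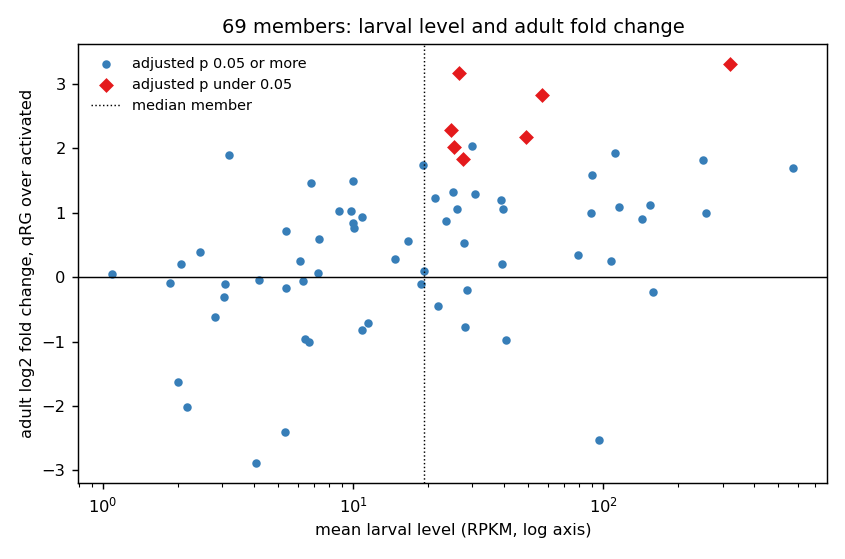
Adult log2 fold change of qRG over activated (vertical axis) against the mean larval level in RPKM (horizontal axis, log scale) for the 69 members, with the 7 called in adults as red diamonds and the median member as a dotted line. All red diamonds lie to the right of the line, where 28 of 34 members are above 0, against 19 of 35 members to the left of it or on it.

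Of the 5 members with the highest larval CPM, the 4 besides ENSDART00000105615 did not pass the adult test. The member at chr20:34937677-34980838, the most abundant in larvae, had 298, 510 and 619 CPM in qRG, against a lowest, median and highest of 43.6, 95.4 and 425.8 CPM in activated libraries (log2 fold change 1.69, edgeR adjusted p = 0.440). Only proliferative replicate 2 made the groups overlap. At chr23:4886764-4910227 the values were 166, 198 and 311 CPM in qRG, against 27.0, 53.9 and 107.3 CPM in activated libraries, without overlap (1.93, edgeR adjusted p = 0.116). At chr2:45004897-45007595 they were 185, 291 and 280 CPM in qRG, against 26.2, 55.6 and 170.7 CPM in activated libraries, also without overlap (1.82, edgeR adjusted p = 0.264). At chr19:5782509-5878902 they were 154, 196 and 265 CPM in qRG, against 49.9, 77.6 and 243 CPM in activated libraries (0.99, edgeR adjusted p = 0.683), and proliferative replicate 2 again lay within the qRG range. The cause of the high values in that library was not tested.

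The members with the largest larval folds had no shared adult pattern. At chr24:43044254-43051322 the level was 0.319, 0.402 and 0.264 CPM in qRG, against a lowest, median and highest of 0.272, 0.730 and 2.04 CPM in activated libraries (log2 fold change -1.63, edgeR adjusted p = 0.695). The members at chr7:9213363-9214691 and chr11:261745-265015 had means of 0.499 and 1.43 CPM in qRG, and of 0.999 and 0.946 CPM in activated libraries. The member at chr22:8805409-8833136 had 20.3, 13.1 and 3.71 CPM in qRG, against 3.33, 9.79 and 29.9 CPM in activated libraries (0.04, edgeR adjusted p = 0.990). All 4 overlapped between the adult groups.

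The fifth of these differed from every other member in adult level. The member at chr18:7047761-7050665, near 0 in notch3+/+ larvae, had 8661, 5923 and 3276 CPM in qRG, against a lowest, median and highest of 1400, 4001 and 12464 CPM in activated libraries. Its mean adult level of 8293 RPKM was the highest of the members, whose median was 5.49 RPKM, while its mean larval level was 2.04 RPKM. Larval and adult levels were scaled separately and differ in tissue, sorting reporters and age. A difference between them therefore cannot be assigned to any of these. The adult groups overlapped widely (log2 fold change 0.20, edgeR adjusted p = 0.957). Its neighbour 4090 bp downstream, at chr18:7054756-7056956, had 570, 450 and 129 CPM in qRG, against 43.4, 93.4 and 362 CPM in activated libraries (1.49, edgeR adjusted p = 0.564). In larvae the neighbour had 6.36, 59.3 and 4.11 CPM in notch3-/-, against 1.17, 27.7 and 1.35 CPM in notch3+/+. Both were highest in replicate 2 of each larval genotype, and among activated libraries both were highest in proliferative replicate 2 and lowest in activatedNPC replicate 3.

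Several members were scarcely detected in the adult libraries, which differ from the larval ones in tissue, sorting reporters, age and scaling. The mean level was under 1 CPM in both adult groups for 4 members, all of which had at least 1.90 CPM as a mean over the larval libraries. The member at chr1:58778029-58789352 had 19.6, 10.2 and 24.3 CPM in notch3-/- larvae and 10.3, 5.57 and 10.5 CPM in notch3+/+ larvae, but at most 0.0502 CPM in any qRG library and at most 0.281 CPM in any activated library. In all, 60 of the 69 members had a mean of at least 1 CPM in qRG and 63 in activated libraries.

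The 3 members with an unadjusted edgeR p under 0.05 in the lower direction, chosen for mention after their values had been seen, were at chr1:45628899-45632879, chr19:20459287-20462429 and chr9:32871352-32948731. They are 4.35% of the members, near the 3.55% of all tested transcripts. The first had 1.22, 1.71 and 0.176 CPM in qRG, against 0.411 to 12.8 CPM in activated libraries (log2 fold change -2.53, edgeR adjusted p = 0.466). In larvae this member had 82.9, 530 and 38.6 CPM in notch3-/-, against 31.8, 434 and 21.9 CPM in notch3+/+, so that replicate 2 stood apart in both genotypes. The other 2 were at most 0.579 CPM in qRG and at most 3.21 CPM in activated libraries. In all 3 the adult groups overlapped.

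The members with the most exons, also singled out after their values were known, had small adult log2 fold changes. These 5, with 41 to 71 exons, had larval log2 fold changes of 0.66 to 1.13 and adult log2 fold changes of -0.16 to 0.39. They all belonged to the lower part of the members by larval level, whose median adult log2 fold change was 0.06. Small changes were thus not particular to them. Their levels were not all even, with 6.80 to 44.5 CPM in activated libraries at chr15:31598255-31629898. The member at chr19:3649380-3686492 was the most even. It had 8.81, 9.87 and 9.91 CPM in qRG, against 8.21 to 9.99 CPM in activated libraries. In larvae it had 53.6, 82.9 and 44.1 CPM in notch3-/-, against 26.8, 53.5 and 19.4 CPM in notch3+/+, higher in notch3-/- in each pair.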

How the data were processed

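RNA was sequenced from 6 larval and 9 adult libraries. Per the labels and methods, the authors aligned reads to Zv9 with TopHat2. The deposited values are raw counts per transcript from featureCounts, as the file headers state, where the methods name HTSeq. No option for pairs or strand was set, so each mate counts as a read. No column of per-sample values was left unused.

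Groups followed the labels. DESeq2 1.42.0 with the replicate number as a block chose the members, after rows without a read were removed. The larval numbers pair the libraries, since every same-number correlation was over 0.1. Adult libraries were tested with edgeR 4.0.16 in R 4.3.3, without a block (filterByExpr, TMM, quasi-likelihood, Benjamini-Hochberg). Both fits were run on simulated data, with a check that true calls had the right sign. The numbers of true and false calls are not reported here. The adult changes put into the simulation were larger than the members' median adult change. They were also larger than that of the called member at chr13:8679134-8684248, so the simulation does not cover changes of those sizes. The larval changes put in were no smaller than 1 on the log2 scale. The larval simulation therefore does not cover the 41 members with a larval log2 fold change under 1. Exon overlaps came from GenomicRanges 1.54.1. The methods describe the replicates as independent experiments on pooled fish.

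Members named by identifier were the 2 with the largest called adult change without overlap. Others are given by position: those called in adults, the 5 largest larval changes, the 5 highest larval CPM, and those beside the threshold. The members, lists and tests were chosen with earlier results of these data known. Other tests, scalings, filters, thresholds, blocks and left-out libraries were tried.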

Additional observations from a re-analysis of the deposited data

Results flagged for a closer look

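In 4 of the 23 transcripts screened, 1 of the 6 activated libraries lay apart from the rest, with a gap to the nearest library above the 95% critical value of Dixon's test. It was proliferative replicate 2 each time, and it was the highest. The values were 425.8 CPM for the member at chr20:34937677-34980838, 243.3 CPM for the member at chr19:5782509-5878902, and 74.9 and 30.1 CPM for the transcripts just outside the larval threshold at chr21:40776705-40884038 and chr20:32086266-32151699. Chance gives such a gap in about 1 in 20 groups of independent values from 1 normal distribution. The values here were CPM without a log, from aRG and aNP libraries pooled. All 23 transcripts also shared the same 6 libraries, so that rate may not hold. The cause was not tested.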

How the results depend on the processing

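The members are sensitive to how the larvae were tested. Against the 69, DESeq2 without the block gave 3, edgeR with it 18, an adjusted p under 0.01 gave 32, and leaving out a replicate gave 22 to 45. In adults, members called higher numbered 4 at an adjusted p under 0.01 (5.80%, against 0.284%), where all transcripts gave 79 higher and 0 lower. They numbered 2 of the 18 members by edgeR (11.1%, against 0.549% of all tested transcripts). The median of those 18 was 0.79, and 1.06 above all transcripts. All transcripts gave 320 higher and 104 lower with DESeq2. Leaving out each adult library gave 70 to 245 transcripts higher, 0 to 14 lower, 1 to 9 members higher, member medians of 0.45 to 0.77 and differences from all transcripts of 0.75 to 1.03. With the replicate block, 156 transcripts were called higher in adults, against 153 without it, and 1 was called lower in either fit. The same 7 members were called higher and 0 lower. Which other transcripts changed was not compared. Adult same-number correlations were 0.15 to 0.27 for qRG with activatedNPC and -0.09 to 0.19 for qRG with proliferative columns. As not every one was over 0.1, the adult numbers were not treated as pairs in the main test. These correlations do not settle whether same-number adult libraries came from 1 pool. The methods describe 3 independent experiments with 20 pooled telencephali, so there may be fewer adult pools than adult libraries. The main test took the adult libraries as independent. The alternatives that follow were chosen after seeing the data. Without activatedNPC replicate 3 and proliferative replicate 2, 4 members were called. Without the 3 libraries with factors above 1, transcripts numbered 272 higher and 328 lower, 1 member was lower, the members' median was 0.75 and its difference 0.67. With library totals, 95 transcripts were lower, 4 members higher, and the members' median 0.14. With counts halved, 3 transcripts were lower. Members chosen without larval replicate 1, 2 or 3 had 1, 2 or 1 calls. These were 4.55%, 4.44% or 2.86% of each set, against 0.549% of all tested transcripts. Their median was 0.80 without replicate 2 (difference 1.07) and 0.20 without replicate 3 (difference 0.46). The direction turned for the 3 transcripts chosen with no block, with 0 calls, a median of -1.41 and a difference of -1.14. The cause was not tested in any of these. Of 126 combinations of called member and alternative, 94 kept the call, 32 lost it and 0 turned. The adult groups did not overlap in any of the 7, so leaving out libraries could hardly turn a sign. The alternatives also reuse the same 9 libraries. The 7 called members differed, with ENSDART00000148960 losing no call and the member at chr21:21745279-21749141 losing 10 of 18. Other settings kept the members' count called within 1.5 times and the sign of the median. Comparing qRG with each other column name alone was not run, because the names did not settle the cell types. No difference was called for the 4 members with a mean under 1 CPM in both adult groups. Whether depth limited this was not tested.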
